A study of Mus musculus with 2 samples.

Results

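The genes described here are the 30 of cholesterol synthesis, its control by SREBP and the movement of sterols through and out of the cell. They comprise 18 synthesis enzymes, 6 regulators and 6 genes of transport, storage and export, which are called transport genes below. Members were found by gene symbol in the platform annotation of the array, and each gene was read by its brightest probe set, chosen by the mean of the log2 signals of both arrays. A probe set of 1 gene was listed for 26 of the 30, out of 12393 genes represented in that way on the array. Acat2, Insig1, Nr1h2 and Soat1 had none in the annotation used and were not analysed here. Of the 26, 25 were over the floor, a signal of 14.0 under which values were not told apart, on at least 1 array; Abcg1 was under it on both.

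The knockout and control groups were compared, each read by 1 Affymetrix Mouse Genome 430A 2.0 array. The knockout group was uterine epithelium of pregnant mice with the genotype label Stat3 knockout, and the control group was the same tissue of mice with the genotype label control. Both samples carry the same title, naming Stat3 flox control mice, so the genotype label and the description tell them apart. Both were collected in the morning at day 4 of gestation, without treatment, and the RNA on each array was pooled from 3 animals or preparations. The labels used here give no strain, age or Cre driver, and with 1 pool per group no difference has a replicate check, so values are described by size and no p-value is given.

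Cholesterol is made from acetyl-CoA in a long chain of reactions that passes through mevalonate, isoprenoids, squalene and lanosterol. Transcription of most of the enzymes is driven by SREBP factors, which are held in the endoplasmic reticulum by INSIG proteins when sterols are plentiful and are escorted by SCAP to the Golgi for release when sterols run low. In the nucleus SREBP acts together with NF-Y and Sp1, which bind beside it. Oxysterols act the other way, through the LXR receptors, which switch on export pumps of the ABC family.

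The synthesis enzymes were lower in the knockout array along the whole route. Of 17 enzymes measured, 10 had a knockout signal 2-fold or more under the control signal and 0 had one 2-fold or more over it. Over all 8304 genes measured, the shares past these limits were 9.92% downwards and 7.37% upwards. All 17 had a log2 ratio (knockout over control) under 0, where 46.6% of all genes did. Mvd and Hsd17b7 were over the floor in the control only, so the sign of their ratios was fixed by the floor. A decrease of 4-fold or more was seen in 5 of the 17, Mvd among them by its bound, against 3.08% of all genes. The enzymes had a median log2 ratio of -1.35, beside 0.05 for all genes. Within 2-fold were Mvk, Pmvk, Tm7sf2, Nsdhl, Ebp and Dhcr7, while Hsd17b7 has only a bound that does not reach the limit. In bulk RNA of this kind, fewer cells of a type and less RNA per cell cannot be told apart.

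**Figure D1:**
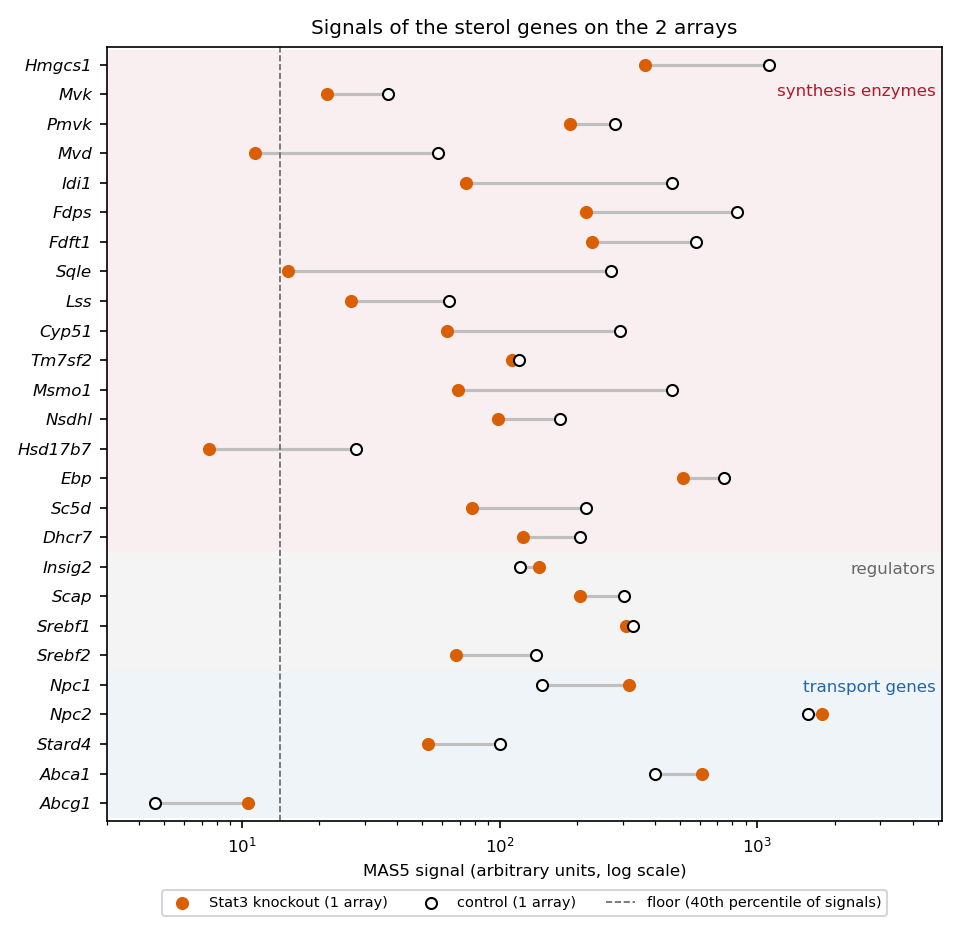
MAS5 signal (horizontal axis, log scale, arbitrary units) of the 26 members with a probe set of 1 gene, with filled points for the Stat3 knockout array and open points for the control array, 1 array each. The filled point lies left of the open one for all 17 synthesis enzymes and right of it for Insig2, Npc1, Npc2, Abca1 and Abcg1, the last under the floor on both arrays.

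RefSeq promoter windows (GRCm38.p6) were read for the enzymes because these genes differed in the same direction. The stretches printed are the 250 bases before the annotated start site, on the strand of the gene, for the 5 most decreased enzymes that had exactly 1 window in the table. Capitals mark matches to CCAAT, the box bound by NF-Y, on either strand (ATTGG on the other), and in Hmgcs1 also a match to TCACNCCAC, the core of the sterol regulatory element bound by SREBP. The windows are chr8:64733579-64733828 (minus strand) for Msmo1, chr13:8885356-8885605 (plus strand) for Idi1, chr5:4104698-4104947 (minus strand) for Cyp51, chr8:122443423-122443672 (minus strand) for Mvd and chr13:119690101-119690350 (plus strand) for Hmgcs1.
Msmo1: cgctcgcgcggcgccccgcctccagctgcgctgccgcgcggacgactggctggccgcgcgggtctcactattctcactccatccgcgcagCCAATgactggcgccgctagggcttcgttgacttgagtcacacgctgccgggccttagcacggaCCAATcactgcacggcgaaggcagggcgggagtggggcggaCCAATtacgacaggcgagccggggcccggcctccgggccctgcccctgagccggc
Idi1: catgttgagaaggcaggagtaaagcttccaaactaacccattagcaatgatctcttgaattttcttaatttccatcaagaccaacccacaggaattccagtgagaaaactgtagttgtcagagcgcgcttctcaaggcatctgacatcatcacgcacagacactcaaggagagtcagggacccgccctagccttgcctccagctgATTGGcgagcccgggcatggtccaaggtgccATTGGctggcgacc
Cyp51: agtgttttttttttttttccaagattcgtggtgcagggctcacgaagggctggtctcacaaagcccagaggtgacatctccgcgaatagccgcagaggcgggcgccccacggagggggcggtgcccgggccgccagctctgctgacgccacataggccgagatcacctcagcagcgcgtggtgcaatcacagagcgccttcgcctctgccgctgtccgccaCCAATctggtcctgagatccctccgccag
Mvd: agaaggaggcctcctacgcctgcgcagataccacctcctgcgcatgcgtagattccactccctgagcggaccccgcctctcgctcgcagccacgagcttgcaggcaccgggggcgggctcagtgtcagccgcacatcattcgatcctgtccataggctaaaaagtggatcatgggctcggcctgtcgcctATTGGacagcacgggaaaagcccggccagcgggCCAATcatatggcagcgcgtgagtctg
Hmgcs1: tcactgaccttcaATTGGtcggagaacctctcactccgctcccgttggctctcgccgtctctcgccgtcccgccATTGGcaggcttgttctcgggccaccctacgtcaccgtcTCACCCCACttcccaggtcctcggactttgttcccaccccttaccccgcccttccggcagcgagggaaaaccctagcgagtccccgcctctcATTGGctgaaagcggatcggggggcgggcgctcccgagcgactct

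A window was found for 15 of the 18 synthesis enzymes, all but Sqle, Fdps and Fdft1, which were all past 2-fold on the arrays, and 14 of these 15 (93.3%) held a CCAAT box in the 250 bases searched. The share was 40.8% among 6788 measured genes with a window and 37.5% among all 27025 genes with one. Of the other members with a window, 4 of 6 regulators (66.7%) and 2 of 3 transport genes (66.7%) held a box. Several boxes were usual in the enzymes: 9 of the 15 had 2 or more in 1 window, against 15.6% of the measured genes. Of the 29 boxes found in windows of the enzymes, 20 lay within 100 bases of the start site. None of the 39 boxes in windows of members overlapped a match of another motif searched. Positions and overlaps were not counted for the other measured genes, so these counts do not set the members apart. The enzyme without a box was Acat2, one of the genes not analysed on the arrays.

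All 7 enzymes with a window that were past 2-fold held a CCAAT box, and so did all 7 measured ones that were not. In 1 window, 2 or more boxes were found for 4 of the 7 past 2-fold and for 5 of the 7 that were not. GC boxes (GGGCGG, bound by Sp1) were present in 14 of the 15 enzymes (93.3%), against 66.0% of the measured genes. The GC content of the windows averaged 61.6% in the enzymes and 60.2% in the measured genes. The sterol element core matched only in Hmgcs1 among the 15 (6.67%, against 1.27% of the measured genes). TTCNNNGAA, the palindrome bound by STAT dimers, matched only in Ebp (6.67%, against 6.79% of the measured genes). The direct repeat bound by LXR with RXR was in 0 of the 15 windows and in 0 of the measured genes. It matched in only 4 of all 27025 genes with a window, so its absence here carries no information. Both strands were searched for every motif, and a match describes these letters and not the binding of a factor. Sites with other letters were not searched, so the lack of a match does not show that a site is absent.

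**Figure D2:**
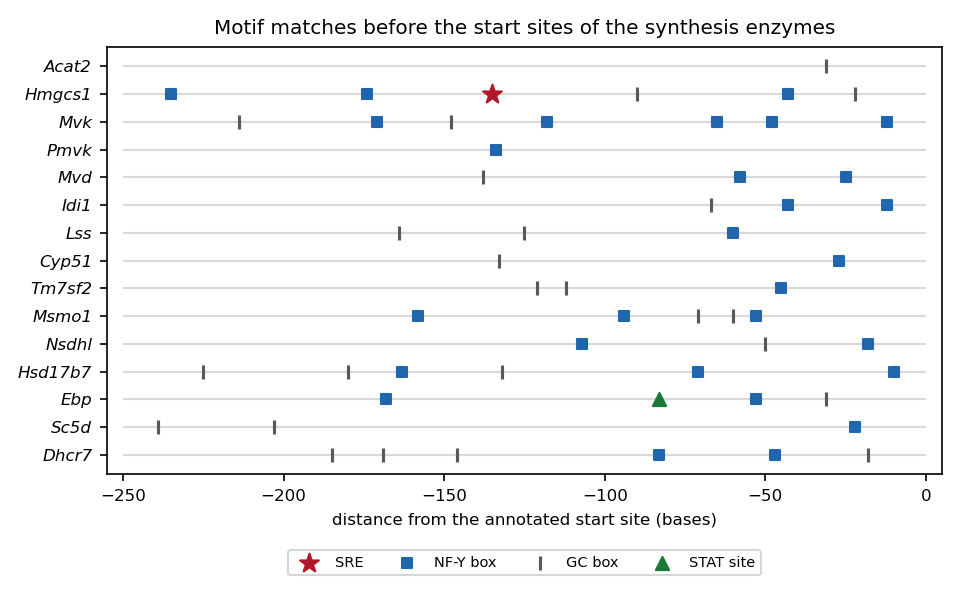
Motif matches in the 250 bases before annotated start sites (horizontal axis, bases from the start site) of the 15 synthesis enzymes with a promoter window, pooling the windows of genes with several start sites. NF-Y boxes (squares) appear in 14 of the 15 rows, the sterol element core (star) only in Hmgcs1 and the STAT palindrome (triangle) only in Ebp.

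Ordered by step, the route opens with the mevalonate and isoprenoid enzymes (median log2 ratio -1.77). Of 6 measured, 4 were lower by 2-fold or more, against 9.92% of all genes. Hmgcs1 encodes HMG-CoA synthase, which makes the precursor of mevalonate. Its signal was 367 in the knockout and 1108 in the control (probe set 1433445_x_at), a log2 ratio of -1.60 or 3.02-fold lower. The other 3 probe sets of Hmgcs1 had log2 ratios of -1.38, -1.41 and -1.94, so all 4 were past 2-fold in the same direction.

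Mvk and Pmvk, the kinases that phosphorylate mevalonate in turn, had the ratios nearest to 0 among these early steps. Mvk had signals of 21.4 in the knockout and 36.8 in the control, close to the floor on both, with a log2 ratio of -0.78. Pmvk had 188 in the knockout and 281 in the control (-0.58). Mvd, the decarboxylase that follows them, was under the floor in the knockout and had a signal of 58.0 in the control, at least 4.13-fold lower. A second Mvd probe set gave at least 5.49-fold lower, with 77.1 in the control.

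Idi1 and Fdps, which isomerise and join the isoprenoid units, were both lower by more than 3-fold. Idi1 had a signal of 74.1 in the knockout and 467 in the control, 6.30-fold lower, and its dimmer probe set, with 21.8 in the knockout and 172 in the control, was 7.88-fold lower. Fdps, which makes farnesyl diphosphate at the branch point to prenylation, had 216 in the knockout and 832 in the control, 3.85-fold lower.

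All 3 enzymes from squalene to lanosterol (median log2 ratio -1.35) were past the limit downwards, against 9.92% of all genes. Fdft1, squalene synthase, commits farnesyl diphosphate to sterols and had signals of 228 in the knockout and 580 in the control, 2.54-fold lower, with 3.54-fold in a second probe set (108 in the knockout, 382 in the control). Sqle, squalene epoxidase, a rate-controlling step after mevalonate, had 15.1 in the knockout and 271.5 in the control. That left 5.56% of the control signal, a log2 ratio of -4.17, and only 29 of the 8304 measured genes had a lower ratio. The knockout value of Sqle lies just over the floor, and with a floor at the 60th percentile of signals its log2 ratio was -2.08.

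Lss, which closes the ring to lanosterol, had 26.6 in the knockout and 63.7 in the control, 2.40-fold lower. This probe set can read several transcripts, and a second one had 28.8 in the knockout and 41.6 in the control, a log2 ratio of -0.53, within 2-fold. The 2 probe sets share the direction and differ in the call.

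From lanosterol to cholesterol, 3 of 8 enzymes were lower by 2-fold or more, against 9.92% of all genes. The median log2 ratio of the 8 was -0.89. Cyp51, which removes the first methyl group of lanosterol, had 62.7 in the knockout and 293 in the control, 4.68-fold lower, and 4.23-fold in a second probe set. Msmo1, the C4 methyl oxidase, had 69.2 in the knockout and 467 in the control, 6.74-fold lower. Among brightest probe sets this was the lowest ratio of the route after Sqle, with Mvd known only as a bound. The dimmer probe set of Idi1 was lower still, at 7.88-fold. Sc5d, the sterol desaturase near the end, had 78.2 in the knockout and 216 in the control, 2.77-fold lower.

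Hsd17b7, the 3-keto reductase of C4 demethylation, was under the floor in the knockout and at 27.7 in the control, at least 1.98-fold lower. With no floor, or with one at the 20th percentile, its log2 ratio was -1.90, and with loess scaling the bound was -1.04, each past the limit. The remaining 4 enzymes of this stretch were within 2-fold. Nsdhl, its partner dehydrogenase, had 98.8 in the knockout and 172 in the control (log2 ratio -0.80). Dhcr7, which catalyses the last step of one branch, had 124 in the knockout and 205 in the control (-0.73). Ebp, the sterol isomerase, had 514 in the knockout and 742 in the control (-0.53). Tm7sf2, a C14 sterol reductase, was nearly level, with 112 in the knockout and 119 in the control (-0.09). Lbr, the nuclear envelope protein that carries the same C14 reductase activity and is no member, had 281 in the knockout and 736 in the control, 2.62-fold lower.

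**Figure D3:**
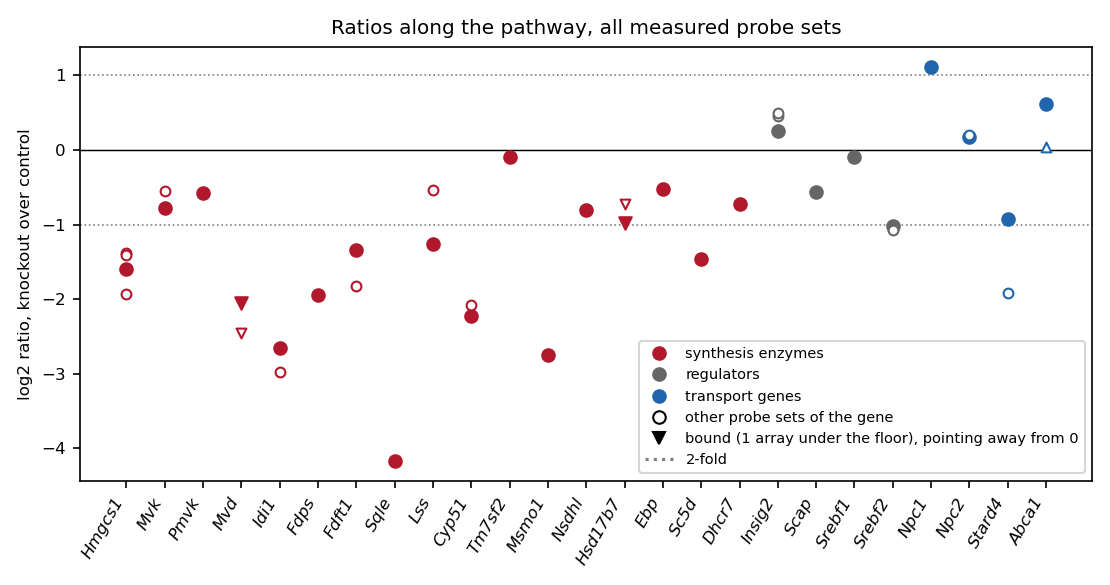
Log2 ratio of knockout over control (vertical axis) for the 25 measured members in pathway order, filled for the brightest probe set and open for other measured probe sets, with triangles for bounds and dotted lines at 2-fold. All probe sets of the synthesis enzymes lie under 0, from -4.17 in Sqle to -0.09 in Tm7sf2, while Npc1 lies at 1.12.

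Agreement between probe sets is the one error that these arrays allow to be measured, and it covers neither animals nor hybridisations. Of the 13 members with another measured probe set, 13 had the same sign in all of them. Of the 7 past 2-fold among these, 6 had every other probe set past 2-fold the same way, the exception being Lss. The shares of all genes with such agreement were not computed, so these counts do not set the members apart. The measured probe sets of Mvd and of Hsd17b7 were over the floor in the control only, which fixes their sign. Across 3237 genes, log2 ratios of 1 gene differed between its probe sets with an SD of 0.37. The ratios of 16 of the 17 enzymes lay further than that from 0, all but Tm7sf2, and so did those of 55.6% of all genes measured.

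Among the regulators, 1 of 4 measured was lower by 2-fold or more and 0 were higher by as much, against 9.92% and 7.37% of all genes. The median log2 ratio was -0.33. Srebf2 encodes SREBP-2, the factor that acts mainly on sterol synthesis genes. Its signal was 67.9 in the knockout and 138 in the control, 2.03-fold lower, and a second probe set was 2.10-fold lower (25.5 in the knockout, 53.6 in the control). This is at the limit: with arrays centred on their medians, or with the floor value added to both signals, Srebf2 was within 2-fold.

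Srebf1, whose products SREBP-1a and SREBP-1c act more on fatty acid genes, was nearly level, with 308 in the knockout and 330.2 in the control (log2 ratio -0.10). Its probe set was not resolved by isoform here. Scap, the escort protein and sterol sensor, had 205 in the knockout and 303 in the control (-0.56). Insig2, one of the retention proteins, had 143 in the knockout and 120 in the control (0.25), and its other 2 probe sets had log2 ratios of 0.46 and 0.49. Insig2 was the one regulator measured with a ratio over 0.

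Of 4 transport genes measured, 3 had a ratio over 0, as 53.4% of all genes did. Past the 2-fold limit were 0 downwards and 1 upwards, against 9.92% and 7.37% of all genes. With so few genes these counts do not set the group apart from genes in general. The median log2 ratio was 0.40, and that of the synthesis enzymes minus this value was -1.74. Of the 17 enzymes, 11 had a ratio under that of Stard4, the lowest transport gene. With 4 genes, 1 array per group and genes that are not replicates, this contrast is a description.

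Npc1, the membrane protein that lets cholesterol out of lysosomes, had a signal of 317 in the knockout and 146 in the control, 2.17-fold higher. Npc2, the soluble protein that hands cholesterol to it, had 1778 in the knockout and 1571 in the control (log2 ratio 0.18), with 0.20 in a second probe set. The pair thus differed in size, with Npc2 within 2-fold.

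Abca1, the pump that loads cholesterol onto apolipoproteins, had 611 in the knockout and 399 in the control (log2 ratio 0.61). A second Abca1 probe set was barely over the floor in the knockout (14.5) and under it in the control. Abcg1, the pump that passes cholesterol to mature lipoproteins, had 10.6 in the knockout and 4.62 in the control, both under the floor, and so has no ratio. Stard4, a cytosolic sterol carrier, was the 1 transport gene measured with a ratio under 0. Its brightest probe set had 53.0 in the knockout and 101 in the control, 1.90-fold lower, and the dimmer one had 20.9 in the knockout and 78.8 in the control, 3.77-fold lower.

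**Figure D4:**
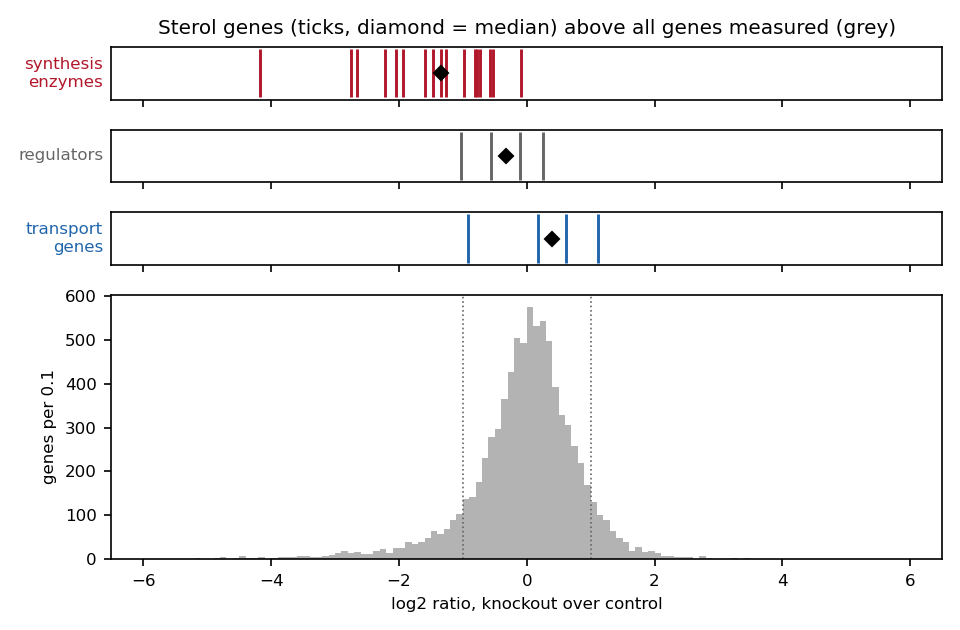
Log2 ratios (horizontal axis, knockout over control) of the measured synthesis enzymes, regulators and transport genes as ticks with a diamond at the median, above a histogram of all 8304 genes measured (genes per 0.1 log2 unit), with dotted lines at 2-fold. The diamonds stand at -1.35, -0.33 and 0.40, and the histogram is centred near 0.05.

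Other genes of sterol and lipid handling were read from lists drawn up from their known roles. Among 5 other measured genes of sterol synthesis, the 1 past 2-fold downwards was Lbr, already given, and 0 were past it upwards. The shares of all genes were 9.92% and 7.37%. Cyb5r3 and Cyb5b, which pass electrons to sterol oxidases, had 3846 in the knockout and 2267 in the control (log2 ratio 0.76), and 1594 in the knockout and 1339 in the control (0.25). A dimmer Cyb5r3 probe set was 2.28-fold higher. Acat1, the mitochondrial thiolase, had 324 in the knockout and 399.7 in the control (-0.30).

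Isoprenoids also feed prenylation and dolichol synthesis. Of 9 measured genes of these branches, 1 was past the limit downwards, near the 9.92% of all genes, and 0 upwards. The other 8 were past it in neither direction, as was the case for 82.7% of all genes, and the median log2 ratio of the 9 was -0.38. Rabggtb, a subunit of the enzyme that prenylates Rab proteins, was 2.02-fold lower, with 185 in the knockout and 373 in the control. Fnta, a farnesyltransferase subunit, had 509 in the knockout and 592 in the control (log2 ratio -0.22). Nus1, a subunit of the dolichol chain enzyme, had 385 in the knockout and 570.4 in the control (-0.57), and Rce1, which trims prenylated proteins, had 122 in the knockout and 115 in the control (0.08).

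Lipoprotein uptake genes went both ways: of 6 measured, 2 were past the limit upwards and 2 downwards, against 7.37% and 9.92% of all genes. Vldlr, a lipoprotein receptor, had 880 in the knockout and 261 in the control, 3.37-fold higher, and its other 3 probe sets were between 2.79-fold and 2.95-fold higher. Mylip, a ubiquitin ligase that marks lipoprotein receptors for breakdown, was 2.09-fold higher (295 in the knockout, 141 in the control). Scarb1, the high-density lipoprotein receptor, was under the floor in the knockout in all 3 of its probe sets. Against a control signal of 46.7 its brightest probe set was at least 3.33-fold lower, while the other 2 were at least 1.82-fold and 3.69-fold lower.

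Lpl, lipoprotein lipase, was under the floor in the knockout and at 33.8 in the control, at least 2.41-fold lower. Lipa, which frees cholesterol from its esters in lysosomes, had 765 in the knockout and 573 in the control (log2 ratio 0.42). Lrp1, a scavenging receptor, had 27.3 in the knockout and was under the floor in the control, at least 1.95-fold higher.

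Of 14 other measured genes of sterol movement, storage and export, 11 had a ratio over 0, against 53.4% of all genes, and the median log2 ratio was 0.21. Past 2-fold were 1 upwards and 1 downwards, near the shares over all genes. Tmem97, a membrane protein of cholesterol traffic, was the one decrease past the limit. It was under the floor in the knockout and at 67.9 in the control, at least 4.83-fold lower. Osbpl2, an oxysterol-binding protein, was 2.09-fold higher (709 in the knockout, 339.5 in the control). Scp2, a sterol carrier, had 836 in the knockout and 742 in the control (log2 ratio 0.17), and 1 of its dimmer probe sets was 2.06-fold higher. Stard5 had 484 in the knockout and 269 in the control (0.85), and Osbpl9 had 368 in the knockout and 351 in the control (0.07).

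In the wider SREBP and LXR control list, 1 of 12 measured genes was past the limit upwards and 0 downwards. The shares of all genes were 7.37% and 9.92%. The median log2 ratio of the list was 0.20. Syvn1, a ubiquitin ligase of the endoplasmic reticulum, was 2.43-fold higher (285 in the knockout, 117 in the control). Mbtps1, the Golgi protease that makes the first cut in SREBP, had 904 in the knockout and 689 in the control (log2 ratio 0.39). Pgrmc1, a haem-binding partner of sterol oxidases, had 2319 in the knockout and 1232 in the control (0.91). The NF-Y subunits went both ways, all within 2-fold. Nfyc had 519 in the knockout and 381 in the control (0.44). Nfya had 65.7 in the knockout and 96.9 in the control (-0.56). Nfyb had 65.8 in the knockout and 102 in the control (-0.64), with -0.44 in a second probe set. Nr1h3, the second LXR gene, was under the floor on both arrays.

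Fatty acid synthesis genes, which SREBP-1 serves, were split between the directions. Of 15 measured, 2 were past the limit downwards and 3 upwards, against 9.92% and 7.37% of all genes. The median log2 ratio was -0.05. Elovl6, a fatty acid elongase, was 4.80-fold lower (28.9 in the knockout, 139 in the control) and Fasn, fatty acid synthase, 2.13-fold lower (366 in the knockout, 778 in the control). Higher were Thrsp, a lipogenic protein gene, at 3.46-fold (3872 in the knockout, 1119 in the control), Gpam, which starts glycerolipid synthesis, at 2.21-fold (805 in the knockout, 364 in the control), and Lpin1, a phosphatidate phosphatase, at least 3.95-fold, with 55.5 in the knockout and the control under the floor.

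Within 2-fold, Scd2, a desaturase, had 3910 in the knockout and 3453 in the control (log2 ratio 0.18), with a dimmer probe set 2.04-fold higher. Elovl5 had 3010 in the knockout and 3112 in the control (-0.05), and Mid1ip1 had 1377 in the knockout and 708 in the control (0.96). Genes that turn cholesterol into oxysterols or steroids were mostly dim: 7 of 9 were under the floor on both arrays, Cyp11a1, Star and Ch25h among them. The 2 measured were Hsd17b11 (1041 in the knockout, 1487 in the control) and Cyp39a1 (323 in the knockout, 263 in the control).

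**Figure D5:**
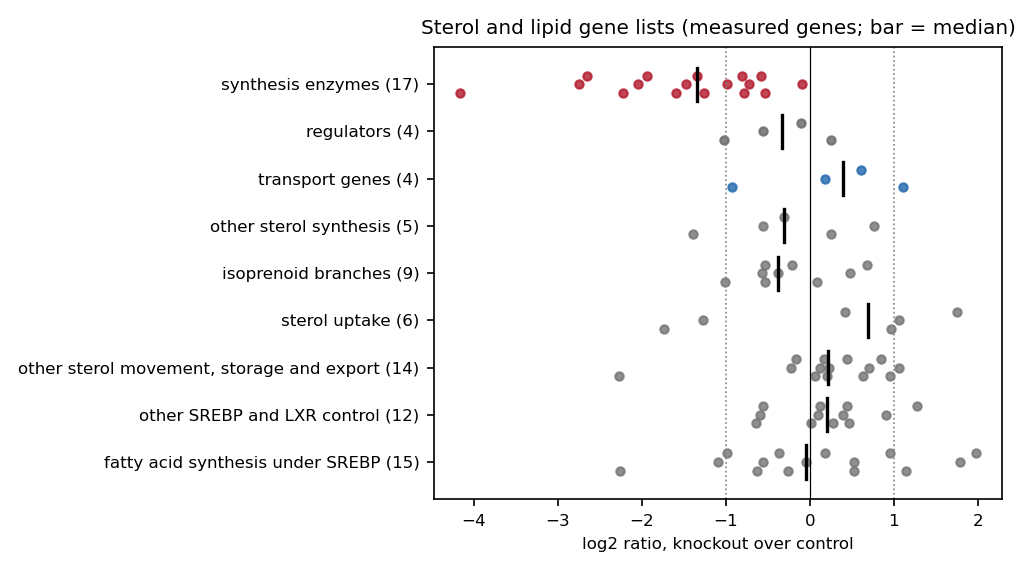
Log2 ratio of knockout over control (horizontal axis) for every measured gene of the 3 member groups and 6 further lists, with a bar at each median, dotted lines at 2-fold and the number of genes in brackets. The synthesis enzymes have the lowest median (-1.35) of the 9 rows, and sterol uptake the highest (0.69).

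Facts of the arrays that bear on these values are few. Stat3 itself was lower in the array labelled knockout in both measured probe sets, at 32.0% and 37.2% of the control signal, and whether these probe sets lie in the deleted part was not determined here. Of 6 epithelial markers, none was past 2-fold (summed signal 20203 in the knockout and 18913 in the control), and 82.7% of all genes were within it. Markers of other cells were also within 2-fold: 6 of 7 stromal markers were measured, with summed signals of 3378 in the knockout and 2411 in the control and Hand2 under the floor on both, as were 4 of 5 leukocyte markers (summed signals of 414 in the knockout and 298 in the control, Cd3e under the floor on both). Of 3 muscle markers, Acta2 was measured (71.6 in the knockout, 95.2 in the control), with Myh11 and Des under the floor on both. Of 3 endothelial markers, Cdh5 was measured (15.8 in the knockout, 18.1 in the control), with Pecam1 and Kdr under the floor on both. The part of these cells in the results was not tested. The 3' to 5' signal ratio was 0.699 in the knockout and 0.736 in the control for Gapdh, 1.56 in the knockout and 1.504 in the control for Actb, and 21.97 in the knockout and 19.9 in the control for Pcx.

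Proliferation genes were also lower in the knockout array. All 10 measured of a list of cell division genes were past the limit downwards, against 9.92% of all genes. They had a median log2 ratio of -4.71 and summed signals of 1104 in the knockout and 9473 in the control. Their part in the lower sterol enzymes was not tested.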

How the data were processed

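Uterine epithelium was freed with trypsin and its total RNA hybridised to 3' expression arrays, per the labels' protocols. One protocol field of the labels mentions human stromal cells and both titles mention flox control mice, so groups were taken from the genotype field. Each deposited value is a linear intensity of 1 probe set. MAS5 and Affymetrix Expression Console 1.1 are named in the submitters' processing notes. Trimmed by 2% at either end, both arrays averaged 150.1, which shows a scaling before deposit. Single probes and detection calls were not used here.

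Of 22626 probe sets that are not controls, 20380 were paired with 1 gene, 691 with several and 1555 were unnamed here, and only the first kind was used. Symbols were updated by gene ID through RefSeq (GRCm38.p6), which held 99.9% of them. Signals under the 40th percentile (14.0) were set to it. No ratio was formed for 4089 genes that were this low in both groups, and a bound was given for 791 that were this low in 1 group. Log2 ratios and counts were computed in Python 3.11.15 with pandas 2.3.3 and tested on simulated data. The simulation gave each gene a single probe set and changed bright ones only. It thus did not test changes near the floor or the choice of probe set. The number of arrays limits the precision. Members, lists and motifs were chosen with earlier results of these data known. Named from each further list of sterol and lipid genes were all genes past 2-fold and the brightest of the rest, up to 3. The proliferation and epithelial marker lists were summarised without naming genes. Nfya and Nfyb were added so that every NF-Y subunit is given. Alternatives changed the scaling, the floor, the probe set and the fold limit.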

Additional observations from a re-analysis of the deposited data

How the results depend on the processing

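The count of synthesis enzymes at least 2-fold lower was 10 of 17 and stayed between 8 and 11 under the other scalings, floors and probe set choices. The count of 8 was of 13 measured with the floor at the 60th percentile and of 15 without shared probe sets. Under these settings 7.27% to 14.3% of all genes were as much lower. It was 14 at a 1.5-fold limit and 7 at 3-fold, where 18.6% and 4.83% of all genes were as much lower. Under any of the settings 0 of the enzymes were higher by as much. Their median log2 ratio ranged from -1.28 to -1.47, against medians of all genes from -0.01 to 0.11. Of transport genes, 1 was past the limit downwards, against 0, with loess scaling, with the mean of all probe sets and at 1.5-fold, and this was Stard4. Upwards it was 2, against 1, with the floor at the 20th percentile and with no floor (Abcg1 added, at 1.20) and at 1.5-fold (Abca1 added), and 0 at 3-fold. The regulator Srebf2 was the 1 past the limit, and the count was 0 with arrays centred on the median, with the floor value added and at 3-fold. Single members moved by more than the SD between probe sets in 8 of 218 recalculations and none past 2-fold changed sign. The ratio of Sqle was -2.08 with the floor at the 60th percentile and -3.29 with the floor value added, that of Lss was -0.53 without shared probe sets, and that of Hsd17b7 was -1.90 with the floor at the 20th percentile or none. With the higher floor 13 of the 17 enzymes were measured. No paired analysis was possible because each group has 1 array.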
